A study of Homo sapiens with 8 samples.

Results

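The genes described here encode the enzymes, transporters and regulators of glycolysis together with a group of genes known to respond to low oxygen. The list holds 36 genes, and each was found by the gene symbol that its probe sets carry alone in the array's annotation. A gene with several such probe sets was represented by the brightest of them, the one with the highest mean log2(signal + 16) over 8 arrays. Of the 36 genes, 32 had a probe set of their own, out of 18244 genes with one, and 31 were bright enough to be tested, out of 11946. EGLN3 lay below the brightness filter. SLC2A3 was represented only by probe sets that also name SLC2A14, and SLC16A1, SLC16A3 and CA9 were not analysed here.

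RNA came from SK-MEL-5, a long-established cell line of human melanoma, grown in medium with serum. Of the 4 groups, each with 2 arrays, THZ1 cells had 250 nM of the drug with 25 uM DMSO for 6 h and DMSO cells had 25 uM DMSO alone, for a time the labels do not give. THZ1 is a covalent inhibitor of CDK7, a kinase of the general transcription machinery. The siMITF cells had a small interfering RNA against MITF, the transcription factor that governs the melanocyte lineage, and siCtrl cells had a control siRNA. The time from transfection to harvest is not in the labels. Whether the arrays of 1 group stem from different cultures is not in the labels, so p-values here reflect no more than the spread among these RNA samples, which may be technical.

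Glycolysis splits glucose into pyruvate in the cytosol and yields ATP without oxygen. Hexokinases trap glucose as a phosphate ester, phosphofructokinases commit it to breakdown under the control of the PFKFB enzymes, and lactate dehydrogenase and pyruvate dehydrogenase kinases decide whether pyruvate leaves as lactate or enters mitochondria. When oxygen is scarce, EGLN prolyl hydroxylases no longer mark HIF-1α and HIF-2α for destruction through VHL. Both then pair with ARNT and bind A/GCGTG elements near many glycolytic genes and near angiogenic and mitophagy genes such as VEGFA and BNIP3. Melanoma cells commonly use glycolysis strongly, and MITF is known to favour mitochondrial oxidation in this lineage.

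Signals were analysed on 2 scales. The deposited signals are described by the study as normalized to cell number, and their offsets between arrays were kept. The relative scale removes from each array the median deviation of its tested genes, so that a change is set against the median gene. With THZ1 the median signal was 51.1 and 67.6, against 61.3 and 76.1 with DMSO. With siMITF it was 40.1 and 32.5, against 51.1 and 59.3 with siCtrl. The ACTB 3'/5' probe ratio, a sign of RNA quality, was 1.42 and 1.40 on the siMITF arrays, against 1.20 and 1.14 on the siCtrl arrays. With THZ1 the ratio was 1.07 and 0.951, against 1.08 and 1.02 with DMSO. The ratio thus moved with the knockdown, and its part in the siMITF results was not tested. MITF itself had signals of 1747 and 1168 on the siMITF arrays, against 3436 and 3936 on the siCtrl arrays. Its change was -1.35 (limma, adjusted p = 1.62e-06) on the deposited scale, where the median over all tested genes was -0.63. On the relative scale the MITF change was -0.72 (limma, adjusted p = 0.000325). Of 8 melanocyte markers listed, 7 had a probe set and all 7 were above the filter, with summed signals of 17391.4 to 21575.9 with siMITF, against 27206.1 to 31273.1 with siCtrl. On the relative scale their median change after siMITF was 0.13, with MITF called lower and SOX10, TYR and S100B called higher. Of all genes 24.7% were called lower there and 19.5% higher. After THZ1, 1 of the 7 was called lower and 0 higher on the deposited scale, SOX10 at -1.36 (limma, adjusted p = 3.93e-06). Of all genes 10.0% were called lower there and 0.0753% higher. On the relative scale 2 were lower (SOX10 and MITF) and 3 higher (MLANA, TYR and S100B), against 21.1% and 17.7% of all genes. MITF read 3311 and 4178 on the THZ1 arrays, against 4670 and 5669 on the DMSO arrays. Its change was -0.47 (limma, adjusted p = 0.28) on the deposited scale and -0.27 (limma, adjusted p = 0.0498) on the relative scale. Among markers for unrelated lineages, 2 of 5 for keratinocytes, 3 of 5 for fibroblasts, 0 of 4 with a probe set for leukocytes and 2 of 4 for endothelium were above the filter. KRT5, KRT14, KRT1, COL1A1, COL1A2, PECAM1 and CDH5 were below the filter, while KRT10, CDH1, DCN, LUM, PDGFRB, VWF and KDR were above it, with LUM at 809.8 and 613 with siMITF, against 1354 and 1639 with siCtrl, and 2325 and 2983 with THZ1, against 2067 and 2476 with DMSO. The fibroblast sum was 718.8 to 958.7 with siMITF, against 1530.8 to 1848.0 with siCtrl, and 2640.2 to 3413.9 with THZ1, against 2348.0 to 2839.9 with DMSO. LUM made up most of each sum. CDH1 read 28.3 and 24.2 with siMITF and 63.0 and 59.7 with siCtrl, but 489 and 689 with THZ1 and 560 and 664 with DMSO. On the relative scale after siMITF, LUM changed by -0.43 (limma, adjusted p = 0.00124). DCN changed by 0.20 (limma, adjusted p = 0.0405) and PDGFRB by 0.19 (limma, adjusted p = 0.265). The part of these markers in the results was not tested.

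Promoter windows of 300 bases, from 250 before to 50 after each gene's first listed start in RefSeq (GRCh38.p14), were found for 30 of the 36 genes. They were searched on both strands for the core of the HIF element, ACGTG or GCGTG, and for CACGTG and CATGTG, the E-box forms that MITF is known to bind. Every CACGTG also counts as a match of ACGTG. The HIF core was in 21 of the 27 windows of tested members and in 48.4% of 27305 gene windows. CACGTG was in 5 of the 27 and 7.4% of all, and CATGTG in 2 of the 27 and 11.2% of all. A match describes letters only and is not evidence of binding. The windows below belong to the members with the largest falls after THZ1 (PFKFB4) and siMITF (ADM and PFKFB3), the largest rise after siMITF (ALDOC) and the largest gap between both changes (ANKRD37), all on the relative scale. Capitals mark the HIF core, which reads CACGT or CACGC where it lies on the other strand.
PFKFB4 (chr3:48556754-48557053, minus strand): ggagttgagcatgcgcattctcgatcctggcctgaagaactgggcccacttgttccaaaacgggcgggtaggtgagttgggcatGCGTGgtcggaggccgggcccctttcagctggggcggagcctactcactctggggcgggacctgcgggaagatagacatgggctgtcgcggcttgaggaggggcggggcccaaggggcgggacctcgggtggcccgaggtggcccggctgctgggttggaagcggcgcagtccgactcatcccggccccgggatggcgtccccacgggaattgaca
ADM (chr11:10304823-10305122, plus strand): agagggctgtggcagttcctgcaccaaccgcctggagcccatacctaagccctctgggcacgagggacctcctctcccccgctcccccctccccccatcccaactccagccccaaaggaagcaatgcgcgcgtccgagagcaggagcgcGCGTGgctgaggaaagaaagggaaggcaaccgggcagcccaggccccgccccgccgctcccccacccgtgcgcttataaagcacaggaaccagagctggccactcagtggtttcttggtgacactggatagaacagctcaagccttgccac
PFKFB3 (chr10:6144671-6144970, plus strand): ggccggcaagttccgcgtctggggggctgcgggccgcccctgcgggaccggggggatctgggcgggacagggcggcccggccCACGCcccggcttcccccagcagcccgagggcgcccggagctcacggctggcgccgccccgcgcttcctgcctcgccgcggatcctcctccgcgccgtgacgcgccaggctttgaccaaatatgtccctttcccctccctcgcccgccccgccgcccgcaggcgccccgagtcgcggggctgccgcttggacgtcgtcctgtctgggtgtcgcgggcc
ALDOC (chr17:28576846-28577145, minus strand): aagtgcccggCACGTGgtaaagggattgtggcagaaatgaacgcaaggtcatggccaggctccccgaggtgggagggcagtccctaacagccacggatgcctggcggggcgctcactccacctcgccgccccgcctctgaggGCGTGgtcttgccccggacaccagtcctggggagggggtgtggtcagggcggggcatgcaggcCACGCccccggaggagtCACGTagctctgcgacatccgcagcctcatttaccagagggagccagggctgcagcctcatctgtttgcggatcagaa
ANKRD37 (chr4:185396591-185396890, plus strand): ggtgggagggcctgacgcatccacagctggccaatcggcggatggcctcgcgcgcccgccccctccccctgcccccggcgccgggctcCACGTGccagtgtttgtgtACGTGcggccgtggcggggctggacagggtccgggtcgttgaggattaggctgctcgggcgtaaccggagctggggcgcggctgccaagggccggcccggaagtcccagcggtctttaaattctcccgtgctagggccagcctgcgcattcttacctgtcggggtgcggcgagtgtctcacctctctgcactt
The ALDOC window held 4 matches and the ANKRD37 window 2, each including a CACGTG, and the other 3 windows held 1 match each without CACGTG.

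After THZ1, PFKFB4 fell on the deposited scale and no other member passed there. At an unadjusted p under 0.05, limma had 3 members lower and 0 higher, and 2319 of the 11946 tested genes passed in either direction. PFKFB4 was the 1 lower call among the 31 tested members, with 0 higher, where 10.0% of all tested genes were called lower, 0.0753% higher and 10.1% in either direction (limma, adjusted p under 0.05). Both THZ1 arrays lay below both DMSO arrays for 5 members and above them for 0, against 30.0% and 0.871% of all genes. The median change of the members was 0.05 on the log2 scale, against -0.16 over all tested genes. On the relative scale, 5 members fell (SLC2A1, PFKFB3, PFKFB4, VEGFA and ANKRD37) and 15 rose, where 21.1% of all genes were called lower, 17.7% higher and 38.8% in either direction. The members' median was then 0.25, against 0.04 over all genes. Both THZ1 arrays lay above both DMSO arrays for 22 members on this scale, against 38.0% of all genes, and below them for 8, against 32.0%.

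Brightness moved with these changes. Genes in the highest decile by signal had a median relative change of 0.23 after THZ1, and the 9 members there had a median of 0.31. In the ninth decile the median was 0.088 over all genes and 0.195 over 8 members, while in the fifth decile it was -0.065 over all genes and 0.13 over 7 members. The part of brightness in the members' rises was not tested. With quantile normalization 5 members were lower and 9 higher, with a median of 0.05, and without the filter on dim probe sets 3 were lower and 3 higher. Of the 20 relative calls, PFKFB4, ALDOC and BNIP3 passed in every alternative run, and leaving out the second DMSO array left 13 calls.

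**Figure D1:**
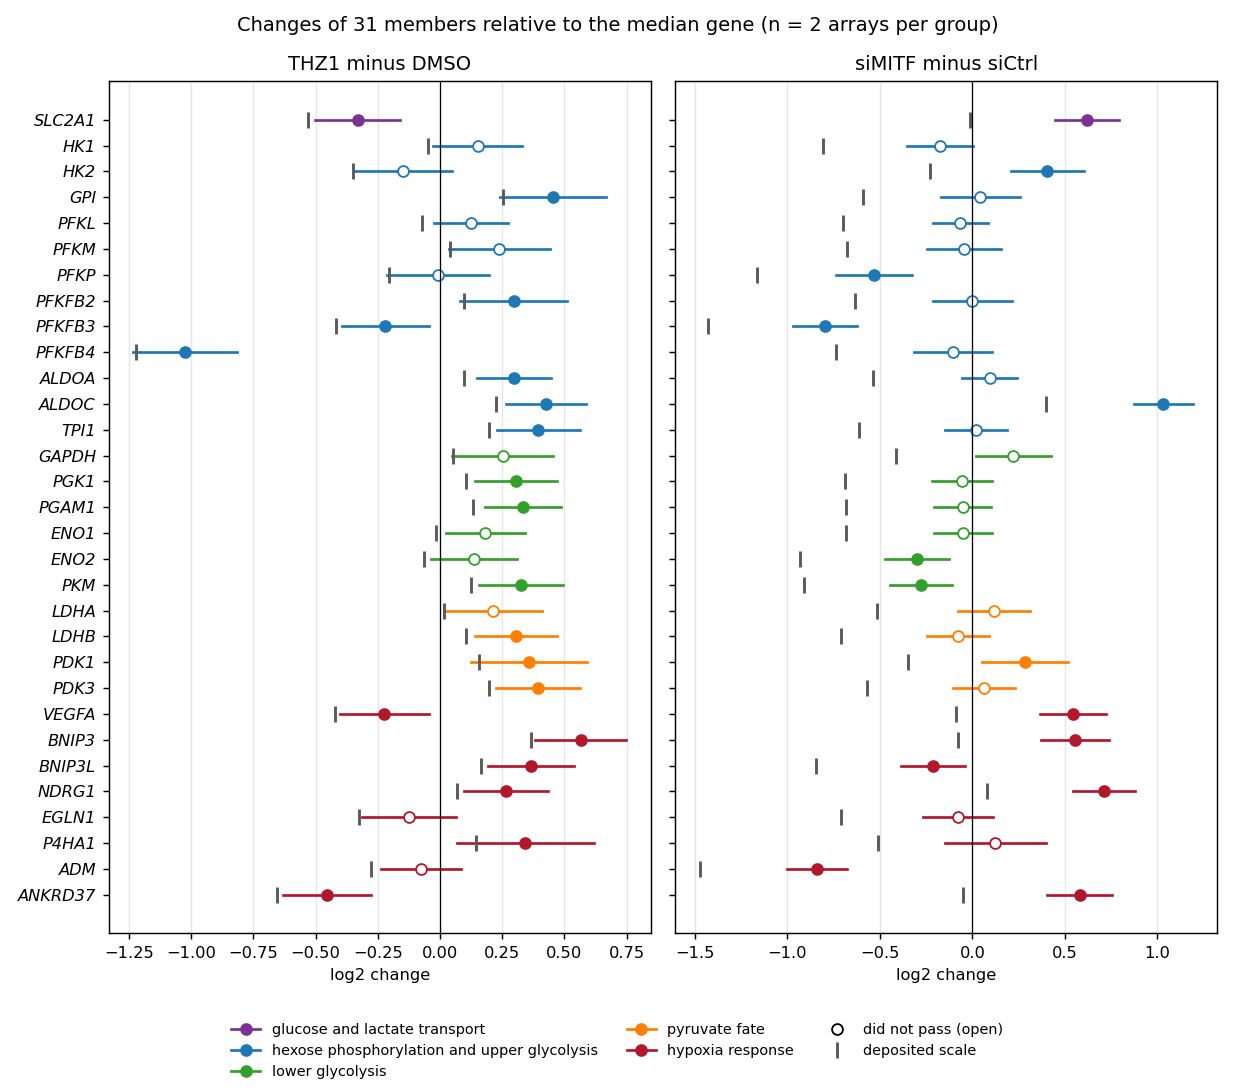
Log2 change of each of the 31 tested members after THZ1 (left, minus DMSO) and after siMITF (right, minus siCtrl), on the relative scale, with 95% intervals as lines and 2 arrays per group. Filled points passed an adjusted p under 0.05, open points did not, and grey ticks show the change of the deposited signal. PFKFB4 stands alone at the left after THZ1 at -1.02, and after siMITF the members spread from ADM at -0.84 to ALDOC at 1.03.

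After siMITF, the deposited signals of most members were lower, as were those of most genes. Of the 31 members 20 fell and 0 rose (22 and 0 at an unadjusted p under 0.05, limma), where 63.4% of all genes were called lower, 0.326% higher and 63.7% in either direction. Without adjustment, 8360 of the 11946 tested genes passed in either direction. Both siMITF arrays lay below both siCtrl arrays for 24 members and above them for 1, against 89.0% and 0.929% of all genes. In bulk RNA, fewer cells of a type and less RNA per cell cannot be told apart. The members' median of -0.63 equalled that of all genes at 2 decimals. The count rested on single arrays: it was 3 without the second siCtrl array and 4 without the second siMITF array, and 0 with each gene's own variance. On the relative scale, 6 members fell (PFKP, PFKFB3, ENO2, PKM, BNIP3L and ADM) and 8 rose (SLC2A1, HK2, ALDOC, PDK1, VEGFA, BNIP3, NDRG1 and ANKRD37), where 24.7% of all genes were called lower, 19.5% higher and 44.2% in either direction. Both siMITF arrays lay below both controls for 13 members and above them for 11 on this scale, against 38.0% and 35.3% of all genes. With quantile normalization the split was 4 lower and 10 higher. Brightness moved with these changes as well. The median relative change after siMITF was 0.23 over all genes of the lowest signal decile, -0.28 in the ninth and -0.14 in the highest, and the members' median was -0.19 for the 8 in the ninth and 0.02 for the 9 in the highest. The part of brightness in the siMITF calls was not tested. Of the 14 calls, 9 passed in every alternative run: SLC2A1, PFKP, PFKFB3, ALDOC, VEGFA, BNIP3, NDRG1, ADM and ANKRD37.

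Among the transporters, only SLC2A1 was tested. It encodes GLUT1, the main basal glucose importer of many cells. Its signals were 105 and 145 on the THZ1 arrays, against 157 and 218 on the DMSO arrays. Both drug arrays were below both controls, with a change of -0.53 (adjusted p = 0.182) on the deposited scale and -0.33 ± 0.077 (SE, adjusted p = 0.00797) on the relative scale. The relative call was lost without the second DMSO array and with the mean of probe sets. In the siRNA set the signals were 133 and 105 on the siMITF arrays, against 103 and 137 on the siCtrl arrays, and the groups overlapped. After siMITF SLC2A1 rose on the relative scale by 0.62 ± 0.077 (SE, adjusted p = 0.000228), or 1.54-fold. Its deposited change was -0.01 (limma, adjusted p = 0.967). The drug and the knockdown thus moved it in opposite relative directions, and its other 2 probe sets above the filter had the same relative signs in both comparisons. On the deposited scale those 2 changed by -0.29 and -0.02 after siMITF. The neuronal-type transporter SLC2A3 could not be separated from SLC2A14, and the brightest of their 5 shared probe sets read 261 and 369 on the THZ1 arrays, against 239 and 278 on the DMSO arrays. The same probe set read 314 and 243 on the siMITF arrays, against 189 and 263 on the siCtrl arrays.

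The hexokinases phosphorylate glucose on entry, and the difference between their changes was not tested. HK2, the inducible hexokinase bound to mitochondria, had signals of 362 and 263 on the siMITF arrays, against 309.9 and 427 on the siCtrl arrays. These groups overlap on the deposited scale, while on the relative scale HK2 rose by 0.41 (adjusted p = 0.0049). HK1, the constitutive form, had 629 and 484 on the siMITF arrays, against 864 and 1106 on the siCtrl arrays. Both siMITF arrays were below both siCtrl arrays, and HK1 fell by 0.81 on the deposited log2 scale (adjusted p = 0.00334), with a relative change of -0.17 (adjusted p = 0.103). After THZ1 neither passed: HK2 read 372 and 481 on the THZ1 arrays, against 474 and 621 on the DMSO arrays, a relative change of -0.15 (adjusted p = 0.208), and HK1 read 857 and 1265 on the THZ1 arrays, against 978 and 1186 on the DMSO arrays, a relative change of 0.15 (adjusted p = 0.159). The second probe set of HK2 gave a relative siMITF change of -0.0085, and the called rise is that of the brighter one.

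GPI, which isomerises glucose 6-phosphate, read 1674 and 2716 on the THZ1 arrays, against 1625 and 1960.0 on the DMSO arrays. Its groups overlap, yet on the relative scale it rose by 0.45 (adjusted p = 0.00486). After siMITF it read 1038 and 791, against 1256 and 1496 with siCtrl, a change on the deposited scale of -0.59 (adjusted p = 0.0294) that left 0.04 on the relative scale.

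The phosphofructokinase isozymes carry out the committed step, and their changes were not tested against each other. PFKP, the platelet form, read 306 and 226 on the siMITF arrays, against 537 and 688 on the siCtrl arrays. The groups do not overlap, with a change of -1.16 ± 0.25 (SE, adjusted p = 3.34e-05) on the deposited scale and -0.53 ± 0.092 (SE, adjusted p = 0.00145) on the relative scale. PFKM, the muscle form, read 556 and 446 on the siMITF arrays, against 687 and 946 on the siCtrl arrays, and PFKL, the liver form, read 83.9 and 66.6 on the siMITF arrays, against 118 and 146 on the siCtrl arrays. Both fell on the deposited scale, by 0.68 and 0.70 on the log2 scale (adjusted p = 0.013 and 0.0106), but lay at -0.04 and -0.06 on the relative scale and did not pass there. After THZ1 no isozyme passed on either scale. PFKP read 485 and 713 on the THZ1 arrays, against 573 and 809.8 on the DMSO arrays, a relative change of -0.01 (adjusted p = 0.961). PFKM read 776 and 1176 on the THZ1 arrays, against 838 and 1031 on the DMSO arrays, a relative change of 0.24 (adjusted p = 0.0611). PFKL read 139.5 and 195 on the THZ1 arrays, against 156 and 195 on the DMSO arrays, a relative change of 0.13 (adjusted p = 0.161). All 3 pairs of drug groups overlapped.

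The PFKFB enzymes make and break fructose 2,6-bisphosphate, the activator of phosphofructokinase, and they held the largest falls of the glycolytic enzymes. PFKFB4 read 70.2 and 88.4 on the THZ1 arrays, against 199 and 213 on the DMSO arrays. Both drug arrays were far below both controls, a fall of 1.22 ± 0.25 on the deposited log2 scale (SE, adjusted p = 4.35e-05), or 2.33-fold lower on log2(signal + 16), and -1.02 ± 0.094 (SE, adjusted p = 3.41e-05) on the relative scale. Its other probe sets above the filter gave -0.38 and -0.27 on the deposited scale, and with the mean of its probe sets the change was -0.52 and did not pass. After siMITF PFKFB4 read 151 and 118, against 226 and 241 with siCtrl, a change on the deposited scale of -0.74 (adjusted p = 0.00719) that left -0.10 on the relative scale.

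PFKFB3, the form with the strongest kinase activity, had the largest fall of the tested glycolytic enzymes after knockdown. It read 230.2 and 185 on the siMITF arrays, against 515 and 661 on the siCtrl arrays. Both siMITF arrays were far below both controls, with a change of -1.43 ± 0.25 (SE, adjusted p = 4.28e-07) on the deposited scale, or 2.69-fold lower, and -0.80 ± 0.078 (SE, adjusted p = 6.74e-05) on the relative scale. All 3 of its probe sets above the filter were lower on both scales. After THZ1 PFKFB3 read 638 and 776 on the THZ1 arrays, against 826 and 1085 on the DMSO arrays. Its groups do not overlap, but the relative change of -0.22 (adjusted p = 0.048) passed in 3 of 12 alternatives, and its other 2 probe sets above the filter lay at 0.15 and 0.16. PFKFB2, the heart form, read 65.2 and 59.7 on the siMITF arrays, against 103 and 108 on the siCtrl arrays, a change on the deposited scale of -0.63 (adjusted p = 0.0199) that left no relative change at 2 decimals. After THZ1 its relative change was 0.30 (adjusted p = 0.0344).

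**Figure D2:**
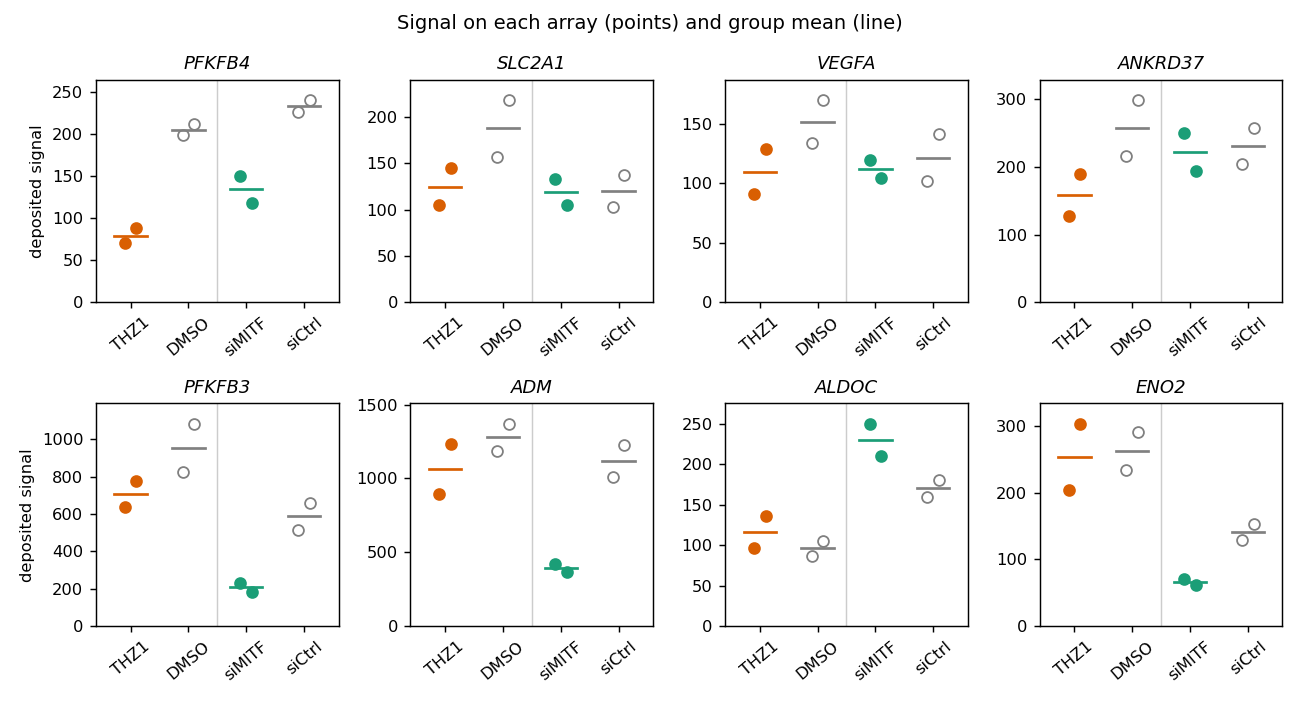
Deposited signal of 8 members on each array, with THZ1 beside DMSO and siMITF beside siCtrl, points for the 2 arrays of a group and lines for the group mean, on axes that start at 0. PFKFB4 is lowest on the THZ1 arrays (70.2 and 88.4, against 199 and 213 with DMSO), while PFKFB3, ADM and ENO2 are lowest on the siMITF arrays and ALDOC is highest there.

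Of the aldolases, which split fructose 1,6-bisphosphate, ALDOC rose most of all members after siMITF. This brain-type form read 250.2 and 209.8 on the siMITF arrays, against 159.7 and 181 on the siCtrl arrays. It was the 1 member whose siMITF arrays both exceeded both siCtrl arrays in deposited signal. Its change was 0.40 (adjusted p = 0.13) on the deposited scale and 1.03 ± 0.072 (SE, adjusted p = 1.62e-05), or 2.05-fold higher, on the relative scale. Of its 5 probe sets above the filter, 4 lay between 0.84 and 1.19 on the relative scale and the other at 0.12. After THZ1 ALDOC read 96.2 and 136 on the THZ1 arrays, against 87 and 105 on the DMSO arrays, overlapping groups with a relative rise of 0.43 (adjusted p = 0.00142). ALDOA, the ubiquitous form, read 3230.1 and 2703 on the siMITF arrays, against 3979 and 4652 on the siCtrl arrays, with a change on the deposited scale of -0.54 (adjusted p = 0.045) and 0.09 on the relative scale. TPI1, which interconverts the triose phosphates that aldolase makes, read 2209 and 1681 on the siMITF arrays, against 2764 and 3161 on the siCtrl arrays, with a change of -0.61 (adjusted p = 0.0238) on the deposited scale. Relative rises after THZ1 were 0.30 (adjusted p = 0.0065) for ALDOA and 0.40 (adjusted p = 0.0027) for TPI1, and neither passed with quantile normalization.

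The enzymes of lower glycolysis, from GAPDH to pyruvate kinase, gave 0 lower and 3 higher relative calls among 6 after THZ1, against 21.1% and 17.7% of all genes. After siMITF there were 2 lower and 0 higher, against 24.7% and 19.5%. All 6 had relative changes above 0 after THZ1, from 0.14 for ENO2 to 0.33 for PGAM1, and PGK1, PGAM1 and PKM passed. None of the 6 passed on the deposited scale, where their changes ran from -0.06 to 0.13. PGK1, PGAM1 and PKM also missed the threshold with quantile normalization.

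The enolases contrast an abundant housekeeping form with a neuronal one. ENO2, known as neuron-specific enolase, read 70.8 and 61.6 on the siMITF arrays, against 129 and 153 on the siCtrl arrays. These groups do not overlap, with a change of -0.93 (adjusted p = 0.000762) on the deposited scale and -0.30 (adjusted p = 0.0111) on the relative scale. ENO1 read 2768 and 2401 on the siMITF arrays, against 3819 and 4507 on the siCtrl arrays, with a change of -0.68 (adjusted p = 0.0123) on the deposited scale and -0.05 (adjusted p = 0.588) on the relative scale. The relative call of ENO2 was lost without the first siMITF array and with a pseudocount of 64. With THZ1 ENO2 read 204 and 304, against 234 and 292 with DMSO, and ENO1 read 4442 and 5536, against 4539 and 5546 with DMSO. Neither enolase passed on either scale after THZ1, and both pairs of groups overlapped.

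PKM, the pyruvate kinase of most adult and tumour cells, was a member that the treatments moved in opposite relative directions. It read 1308 and 1675 on the THZ1 arrays, against 1163 and 1581 on the DMSO arrays, overlapping groups with a relative rise of 0.32 (adjusted p = 0.00776). In the siRNA set it read 477 and 382 on the siMITF arrays, against 732 and 912 on the siCtrl arrays. The knockdown arrays were both lower, a change of -0.91 (adjusted p = 0.000996) on the deposited scale and -0.28 (adjusted p = 0.0138) on the relative scale. That relative call was lost without the second siMITF array and without the second siCtrl array. PGK1, which makes the first ATP of the pathway, read 3175 and 2749.5 on the siMITF arrays, against 4403 and 5174 on the siCtrl arrays, and PGAM1, the next mutase, read 3032 and 2633 on the siMITF arrays, against 4204 and 4924 on the siCtrl arrays. They fell on the deposited scale by 0.69 and 0.68 on the log2 scale (adjusted p = 0.0116 and 0.0121) but did not pass on the relative scale. GAPDH, often taken as a constant control gene, read 13428 and 15615 on the THZ1 arrays, against 13119 and 14859 on the DMSO arrays, a change of 0.05 (adjusted p = 0.988) on the deposited scale. It read 9052 and 8134 on the siMITF arrays, against 10909 and 11961 on the siCtrl arrays, a deposited change of -0.41 (adjusted p = 0.12) and a relative one of 0.22 (adjusted p = 0.0745). GAPDH was measured here by a control probe set of the array.

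Pyruvate leaves glycolysis through lactate dehydrogenase or enters mitochondria, and the pyruvate dehydrogenase kinases block the second route. LDHA, the form that favours lactate, read 11050.0 and 13261 on the THZ1 arrays, against 11275 and 12730.0 on the DMSO arrays, and LDHB, the form that favours pyruvate, read 7270.3 and 8997 on the THZ1 arrays, against 7029 and 8032 on the DMSO arrays. Both pairs of groups overlap, and LDHB rose on the relative scale by 0.31 (adjusted p = 0.00977) while LDHA had 0.21 (adjusted p = 0.0759). After siMITF LDHA read 7324 and 6671, against 9473 and 10584 with siCtrl, and LDHB read 4286 and 3432, against 5796 and 6806. Both groups of siMITF arrays were lower, and on the deposited scale LDHB passed at -0.71 (adjusted p = 0.00945) while LDHA had -0.52 (adjusted p = 0.0538). The difference between these isozymes was not tested.

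PDK1 is a known HIF target and PDK3 a close relative. PDK3 read 222 and 315 on the THZ1 arrays, against 210.0 and 250.2 on the DMSO arrays, and PDK1 read 67.6 and 98.4 on the THZ1 arrays, against 56.9 and 89.3 on the DMSO arrays. Their groups overlap, and both rose on the relative scale, PDK3 by 0.39 (adjusted p = 0.003) and PDK1 by 0.36 (adjusted p = 0.0217). After siMITF PDK3 read 127 and 92, against 149.9 and 189 with siCtrl, a deposited change of -0.57 (adjusted p = 0.0351) that left 0.06 on the relative scale. PDK1 was dim, at 31.1 and 30.9 on the siMITF arrays, against 38.6 and 49.6 on the siCtrl arrays. Its relative rise of 0.28 (adjusted p = 0.0491) passed in 5 of 12 alternatives.

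The hypoxia response members moved in both directions on the relative scale in each comparison. After THZ1 none of the 8 tested passed on the deposited scale, where 10.1% of all genes did. On the relative scale VEGFA and ANKRD37 fell, BNIP3, BNIP3L, NDRG1 and P4HA1 rose, and EGLN1 and ADM did not pass. Of all genes 21.1% were called lower there and 17.7% higher. After siMITF ADM, BNIP3L and EGLN1 fell on the deposited scale, where 63.4% of all genes did. On the relative scale ADM and BNIP3L fell while VEGFA, BNIP3, NDRG1 and ANKRD37 rose, against 24.7% of all genes called lower and 19.5% higher.

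ADM encodes adrenomedullin, a vasodilator peptide. It read 419 and 363 on the siMITF arrays, against 1007 and 1229 on the siCtrl arrays. Both siMITF arrays were far below both controls, and the change of -1.47 ± 0.25 (SE, adjusted p = 1.76e-07), or 2.78-fold lower on log2(signal + 16), was the largest fall of any member. The relative change was -0.84 ± 0.073 (SE, adjusted p = 3.48e-05), and all 3 of its probe sets lay between -0.85 and -0.83. After THZ1 ADM read 895 and 1231 on the THZ1 arrays, against 1184 and 1370.5 on the DMSO arrays. Those groups overlap and the change did not pass on either scale, at -0.28 deposited and -0.08 relative.

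ANKRD37 encodes an ankyrin repeat protein known as a HIF-1 target. It read 128 and 189.5 on the THZ1 arrays, against 216 and 299 on the DMSO arrays. Both drug arrays were below both controls, with a change of -0.65 (adjusted p = 0.0686) on the deposited scale and -0.45 ± 0.079 (SE, adjusted p = 0.00176) on the relative scale. It read 249 and 194 on the siMITF arrays, against 204 and 256 on the siCtrl arrays, overlapping groups, and on the relative scale it rose by 0.58 ± 0.079 (SE, adjusted p = 0.000378). Its deposited change after siMITF was -0.05 (limma, adjusted p = 0.844). VEGFA, the vascular growth factor, had the same pair of relative signs. It read 91.2 and 129 on the THZ1 arrays, against 134 and 170.0 on the DMSO arrays, with groups that do not overlap, and 119.5 and 104 on the siMITF arrays, against 102 and 141 on the siCtrl arrays, with groups that do. Its relative rise after siMITF was 0.54 (adjusted p = 0.000574), and all 8 of its probe sets above the filter were above 0 there. In deposited signal VEGFA changed by -0.09 after siMITF (limma, adjusted p = 0.734). The 8 probe sets, with mean signals of 46.8 to 124, lay between -0.51 and 0.07 on that scale. The relative change of VEGFA after THZ1, -0.22 (adjusted p = 0.0493), passed in 2 of 12 alternatives, and its 8 probe sets lay between -0.34 and 0.51.

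BNIP3 and BNIP3L are mitophagy receptors that tag mitochondria for removal. BNIP3 read 681 and 1000.5 on the THZ1 arrays, against 549 and 738 on the DMSO arrays. The groups overlap in deposited signal, and on the relative scale BNIP3 had the largest rise of any member, 0.57 ± 0.082 (SE, adjusted p = 0.000576), or 1.48-fold. It read 603 and 475 on the siMITF arrays, against 498 and 642 on the siCtrl arrays, which overlap too, with a relative rise of 0.55 ± 0.082 (SE, adjusted p = 0.000597). BNIP3L read 741 and 1011 on the THZ1 arrays, against 676 and 877 on the DMSO arrays and rose on the relative scale by 0.37 (adjusted p = 0.0048). In the siRNA set it read 456 and 340.2 on the siMITF arrays, against 638 and 814 on the siCtrl arrays, a change of -0.85 (adjusted p = 0.00216) on the deposited scale. Its relative change of -0.21 (adjusted p = 0.0466) passed in 5 of 13 alternatives and turned to 0.0675 with quantile normalization.

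NDRG1, a stress-responsive gene known as a HIF target, read 69.5 and 53 on the siMITF arrays, against 50.5 and 63.4 on the siCtrl arrays. The groups overlap, and the change of 0.08 on the deposited scale became a relative rise of 0.71 ± 0.076 (SE, adjusted p = 9.89e-05), with its other 3 probe sets above the filter between 0.42 and 0.59. Those 3 were dim, with mean signals of 44.2 to 51.9 where the filter lay at 39.2. Their deposited changes were -0.21 to -0.04. All genes of the lowest signal decile had a median relative change of 0.23 after siMITF. The part of dimness in the NDRG1 values was not tested. NDRG1 read 108 and 167 on the THZ1 arrays, against 115 and 142 on the DMSO arrays, with a relative rise of 0.27 (adjusted p = 0.0197) that was lost without the first DMSO, the second DMSO or the second THZ1 array. P4HA1, a collagen prolyl hydroxylase subunit, rose after THZ1 on the relative scale by 0.34 (adjusted p = 0.0489), a call kept in 4 of 12 alternatives, and did not pass after siMITF on either scale. EGLN1 encodes PHD2, the main oxygen sensor of the HIF pathway, and read 391 and 289.9 on the siMITF arrays, against 481 and 653 on the siCtrl arrays. It fell on the deposited scale by 0.71 on the log2 scale (adjusted p = 0.00944) with -0.08 on the relative scale. After THZ1 EGLN1 read 864 and 1086, against 1083 and 1369.8 with DMSO, and its relative change of -0.13 (adjusted p = 0.264) came with 0.44 and 0.48 at its other probe sets. EGLN3, its inducible relative, stayed dim on all arrays, at 14.3 and 22.7 with THZ1, 20.5 and 25.7 with DMSO, 13.4 and 17.7 with siMITF and 26 and 31.4 with siCtrl, and was not tested.

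The next comparison asked whether the drug and the knockdown changed a member by different amounts, as the THZ1 change minus the siMITF change. On the deposited scale 0 members were lower and 4 higher (0 and 15 at an unadjusted p under 0.05, limma), where 0.946% of all genes were called lower, 9.84% higher and 10.8% in either direction. Without adjustment, 3542 of the 11946 tested genes passed in either direction. The 4 members called were ADM at 1.20 (adjusted p = 0.0149), PKM at 1.04 (adjusted p = 0.0353), BNIP3L at 1.01 (adjusted p = 0.0399) and PFKFB3 at 1.01 (adjusted p = 0.0402). That count fell to 0 without the first DMSO, the second THZ1, the second siCtrl or the second siMITF array and was 17 without the first THZ1 array. The relative differences were lower for 7 members and higher for 13, where 20.2% of all genes were called lower, 21.4% higher and 41.6% in either direction. The members' median difference was 0.23, against 0.01 over all genes. With quantile normalization the split turned to 9 lower and 5 higher.

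By size, the relative differences began with members that were lower after THZ1 than after siMITF. ANKRD37 differed by -1.03 ± 0.11 (SE, adjusted p = 0.000131), SLC2A1 by -0.95 ± 0.11 (SE, adjusted p = 0.000178) and VEGFA by -0.77 ± 0.11 (SE, adjusted p = 0.000617). Each was lower after THZ1 and higher after siMITF on the relative scale. In deposited signal ANKRD37 changed by -0.05, SLC2A1 by -0.01 and VEGFA by -0.09 after siMITF, and none passed. Their deposited differences of -0.60, -0.52 and -0.33 did not pass either (limma, adjusted p = 0.227, 0.296 and 0.502). On the relative scale PFKFB4 differed by -0.92 (adjusted p = 0.000558) and HK2 by -0.56 (adjusted p = 0.00584). ALDOC, which rose on the relative scale in both, differed by -0.61 (adjusted p = 0.00118), and NDRG1 by -0.45 (adjusted p = 0.0081). In the other direction ADM differed by 0.77 (adjusted p = 0.000395), PKM by 0.60 (adjusted p = 0.00162), BNIP3L by 0.58 (adjusted p = 0.00227) and PFKFB3 by 0.58 (adjusted p = 0.00245), each lower after siMITF than after THZ1. BNIP3 had a difference of 0.01 (adjusted p = 0.946) with a 95% interval of -0.25 to 0.27, but with quantile normalization it was -0.37 and passed (adjusted p = 0.0108). Of the 20 relative differences called, 8 passed in every alternative run, those of SLC2A1, PFKFB3, PFKFB4, ALDOC, ENO2, VEGFA, ADM and ANKRD37.

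**Figure D3:**
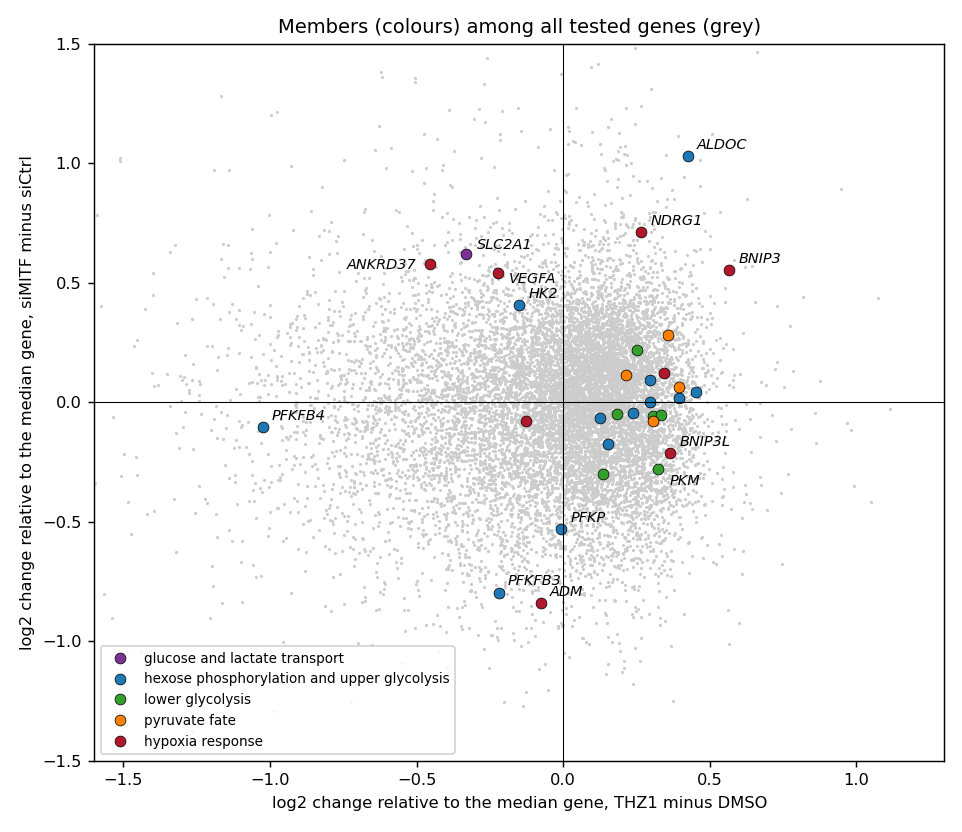
Log2 change on the relative scale after THZ1 (horizontal) against that after siMITF (vertical), with the 31 tested members in the colour of their role and all other tested genes in grey. A few grey genes lie beyond the axes and are not drawn. SLC2A1, ANKRD37 and VEGFA sit at the upper left, ALDOC, NDRG1 and BNIP3 at the upper right, and PFKFB3 and ADM at the bottom.

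Across roles, 4 members passed as higher on the relative scale in both comparisons (ALDOC, PDK1, BNIP3 and NDRG1) and 1 as lower in both (PFKFB3). A further 3 were lower after THZ1 and higher after siMITF (SLC2A1, VEGFA and ANKRD37), and 2 were higher after THZ1 and lower after siMITF (PKM and BNIP3L). HK1, PFKL, PFKM, GAPDH, ENO1, LDHA and EGLN1 passed in neither. Over all genes, 21.1% were called lower and 17.7% higher after THZ1, and 24.7% lower and 19.5% higher after siMITF. The share of all genes called in both was not computed, so these joint counts cannot be set against it.

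Members with several probe sets let the choice of probe set be seen directly. Of the 20 members with more than 1 above the filter, 16 had the same sign of relative change at all of them after THZ1 and 14 after siMITF. The mixed members were EGLN1, HK2, PFKFB3 and VEGFA after THZ1, and ALDOA, EGLN1, HK2, PFKFB4, PGK1 and TPI1 after siMITF. The probe sets of PGAM1 spread between -0.75 and -0.05 after siMITF, all below 0, and the 9 of PGK1 between 0.28 and 0.41 after THZ1.

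**Figure D4:**
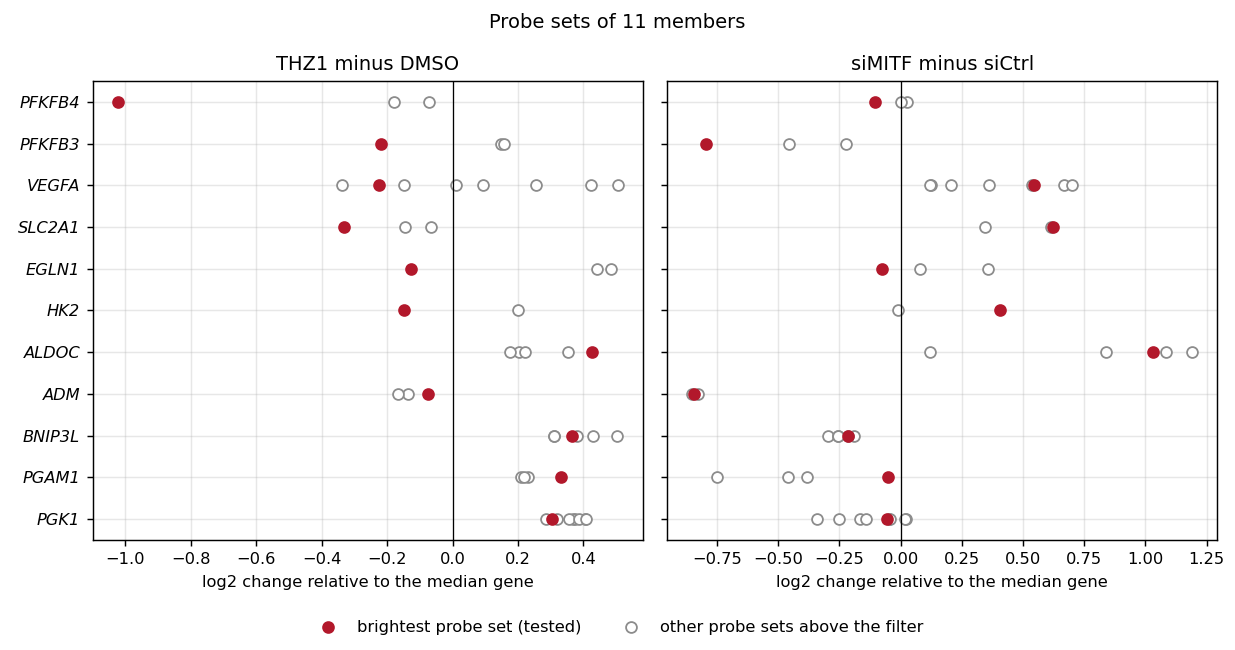
Log2 change on the relative scale at every probe set above the filter for 11 members, after THZ1 (left, minus DMSO) and after siMITF (right, minus siCtrl). Red points are the brightest probe sets, which were tested, and open points the others. The fall of PFKFB4 after THZ1 appears at the brightest of its 3 probe sets (-1.02, with -0.18 and -0.07 at the others), while the 3 probe sets of ADM lie together after siMITF.

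Around the members stand the regulators of the HIF pathway, which sense oxygen or assemble and degrade HIF. Of 17 tested, 0 passed after THZ1 on the deposited scale, and on the relative scale 3 were lower and 3 higher, near the shares of all genes, 21.1% and 17.7%. ARNT2, a partner of HIF subunits, changed by -0.46 (adjusted p = 0.000808), and HIF1AN, the asparaginyl hydroxylase that inhibits HIF, by -0.40 (adjusted p = 0.00225). ELOB, an elongin of the VHL ligase, changed by 0.45 (adjusted p = 0.000877), and EPAS1, which encodes HIF-2α, by 0.42 (adjusted p = 0.00311). After siMITF 5 were lower and 3 higher on the relative scale, where 24.7% and 19.5% of all genes were, and 12 fell on the deposited scale, where 63.4% of all genes did. These counts too lie near the shares of all genes. CUL2, the VHL ligase scaffold, changed by -0.47 (adjusted p = 0.000695), ARNT by 0.69 (adjusted p = 0.000833), CITED2, which competes with HIF for coactivators, by 0.40 (adjusted p = 0.00241), and ARNT2 by 0.29 (adjusted p = 0.00832). HIF1A, given here outside the naming rule as the pathway's central subunit, read 924 and 602 on the siMITF arrays, against 1317 and 1693 on the siCtrl arrays, a relative change of -0.35 (adjusted p = 0.0189). After THZ1 it had a relative change of 0.23 (adjusted p = 0.104).

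Of 29 tested hypoxia-inducible genes listed apart from the members, 7 fell and 0 rose after THZ1 on the deposited scale, where 10.0% of all genes were called lower and 0.0753% higher. HILPDA, a lipid droplet protein, read 91.4 and 122 on the THZ1 arrays, against 268 and 332 on the DMSO arrays, a change of -1.37 (adjusted p = 3.24e-06). RAB20, a small GTPase, read 78.9 and 98.1 on the THZ1 arrays, against 218 and 284 on the DMSO arrays, a change of -1.35 (adjusted p = 4.82e-06). BHLHE41, a circadian repressor, read 367 and 512 on the THZ1 arrays, against 986 and 1374 on the DMSO arrays, a change of -1.39 (adjusted p = 2.09e-06). All 3 were lower on both drug arrays than on both controls. By the relative scale 9 of the 29 were lower and 8 higher, against 21.1% and 17.7% of all genes, among them FAM162A at 0.55 (adjusted p = 0.000308). The same list had 5 lower and 14 higher on the relative scale after siMITF, against 24.7% and 19.5% of all genes. DDIT4, an inhibitor of mTORC1, read 789.5 and 693 on the siMITF arrays, against 369.9 and 507 on the siCtrl arrays, a rise of 0.75 (adjusted p = 0.00615) in deposited signal. TMEM45A changed by 0.84 (adjusted p = 0.000132) and KDM4B, a histone demethylase, by 0.81 (adjusted p = 0.000225) on the relative scale. BHLHE41 was lower there, at -0.77 (adjusted p = 0.000261).

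Of 11 tested genes that take pyruvate into mitochondria, oxidise it or regulate that step, 9 fell after siMITF on the deposited scale and 2 did not pass, where 63.4% of all genes were called lower. On the relative scale 6 were lower, 1 was higher and 4 did not pass, where 24.7% of all genes were called lower and 19.5% higher. DLAT and PDHA1, subunits of pyruvate dehydrogenase, changed by -0.61 (adjusted p = 0.000369) and -0.54 (adjusted p = 0.000441) on the relative scale, and MPC2, a subunit of the mitochondrial pyruvate carrier, by -0.42 (adjusted p = 0.00128). PDK4, a kinase that blocks the enzyme, rose by 0.47 (adjusted p = 0.000459). After THZ1 the same list had 2 lower and 6 higher on the relative scale, against 21.1% and 17.7% of all genes, and 0 calls on the deposited scale. MPC1 changed by 0.47 (adjusted p = 0.000961), MPC2 by 0.33 (adjusted p = 0.00483), PDK2 by 0.38 (adjusted p = 0.00447) and PDK4 by -0.33 (adjusted p = 0.00416).

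Of the genes of the pentose phosphate pathway and glycogen, 11 of 14 fell after siMITF on the deposited scale, where 63.4% of all genes did, and 4 were lower and 1 higher on the relative scale, where 24.7% of all genes were lower and 19.5% higher. PGM1, which links glycogen to glycolysis, read 209 and 159.6 on the siMITF arrays, against 526 and 634 on the siCtrl arrays. The siMITF arrays were both below the controls, with a change of -1.58 (adjusted p = 2.42e-08) on the deposited scale and -0.95 (adjusted p = 2.76e-05) on the relative scale. PGM2 changed by -0.61 (adjusted p = 0.000283), RPE, a pentose epimerase, by -0.48 (adjusted p = 0.00389) and H6PD, which oxidises glucose 6-phosphate in the endoplasmic reticulum, by 0.45 (adjusted p = 0.00358) on the relative scale. After THZ1 TALDO1, the transaldolase, changed by 0.29 (adjusted p = 0.00772) and GBE1, the glycogen branching enzyme, by 0.35 (adjusted p = 0.00795) on that scale, and 0 passed on the deposited one. Of the other glycolytic isozymes and regulators, 17 tested, 1 was lower and 2 higher after THZ1 on the relative scale, against 21.1% and 17.7% of all genes, and 3 were lower and 4 higher after siMITF, against 24.7% and 19.5%. HK3, a further hexokinase, BSG, a chaperone of lactate transporters, and SLC2A10 changed after THZ1 by 0.40 (adjusted p = 0.00453), 0.29 (adjusted p = 0.0257) and -0.27 (adjusted p = 0.0471). After siMITF SLC16A7, a monocarboxylate transporter, and PGAM5 changed by -0.59 (adjusted p = 0.000269) and -0.45 (adjusted p = 0.00293), while SLC2A10 and FBP2, a fructose bisphosphatase, changed by 0.45 (adjusted p = 0.00455) and 0.42 (adjusted p = 0.00467).

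The THZ1 change minus the siMITF change was lower for 12 and higher for 6 of the 29 other hypoxia-inducible genes on the relative scale, where 20.2% of all genes were lower and 21.4% higher, with DDIT4 at -2.004 (adjusted p = 1.70e-05), HILPDA at -1.52 (adjusted p = 3.63e-05), KDM4B at -1.25 (adjusted p = 0.000165) and RAB20 at -1.09 (adjusted p = 0.000204). Of the 11 pyruvate entry genes 1 was lower, PDK4 at -0.80 (adjusted p = 0.000206), and 7 were higher, among them PDHA1 at 0.82 (adjusted p = 0.000348), MPC2 at 0.75 (adjusted p = 0.000375) and MPC1 at 0.76 (adjusted p = 0.000429). Of the 17 HIF regulators 3 were lower and 5 higher, near those shares, with ARNT2 at -0.75 (adjusted p = 0.000381) and ARNT at -0.99 (adjusted p = 0.000789). The 14 pentose phosphate and glycogen genes had 1 lower and 7 higher, with PGM1 at 0.93 (adjusted p = 0.000194), and the 17 other glycolytic isozymes and regulators had 2 lower and 3 higher, with SLC16A7 at 0.66 (adjusted p = 0.0011) and SLC2A10 at -0.72 (adjusted p = 0.00232).

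The control groups also differed from each other. The median ERCC spike-in signal was 28.5 and 28.7 on the siCtrl arrays, against 53.7 and 48.0 on the DMSO arrays, so no test was made between the siRNA set and the drug set. Centred on the median gene, siCtrl minus DMSO was 1.03 for ALDOC, 0.47 for PFKFB4, -0.80 for EGLN1, -0.68 for NDRG1, -0.54 for PFKFB2 and -0.52 for ENO2. The keratinocyte marker CDH1 differed as well, at 63.0 and 59.7 on the siCtrl arrays, against 560 and 664 on the DMSO arrays. The set, the transfection and the culture cannot be told apart here.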

How the data were processed

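SK-MEL-5 RNA was hybridised to 8 Affymetrix arrays. The authors deposited linear signals (intensity) made with MAS5, per the submitters' processing notes. The series' design text calls them normalized to cell number, by steps not given in the sources used here, and the labels' protocols describe ERCC spikes added by cell number.

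Of 49495 probe sets, 45284 carried 1 gene symbol (45214 matched by gene ID to RefSeq, GRCh38.p14). Signals entered as log2(signal + 16). A gene was its brightest probe set, tested at or above the 40th percentile of single-symbol probe sets (signal 39.2). All 8 arrays entered 1 fit of group means (limma 3.58.1, R 4.3.3), with Benjamini-Hochberg adjustment over 11946 genes and a threshold of 0.05. Every p-value in the text is from this fit, except where an alternative setting is named. On the deposited scale the prior degrees of freedom were infinite: all changes had an SE of 0.25, differences 0.35, and small p-values overstate the evidence. On the relative scale they were 5.97, with 4 residual ones and a median SE of 0.084. Folds understate changes of dim genes. The fit was tested on simulated data.

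Members, lists and the relative scale were chosen with earlier results of these data known. Companion lists held 107 genes, of which 88 were tested. Every member may be named, and up to 4 genes per companion list and comparison, by lowest relative adjusted p. Alternatives covered normalization, pseudocount, filter, mean of probe sets, own variance, replicate block, the arrays compared alone, and each array left out.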

Additional observations from a re-analysis of the deposited data

How the results depend on the processing

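The counts of members called are the least stable values. For THZ1 on the deposited scale (1 call) they were 14 with quantile normalization, 0 with the mean of probe sets, 0 with each gene's own variance, 2 with a replicate block and 1 to 3 with an array left out. For siMITF on that scale (20 calls) they were 0 with own variance and 3 to 21 with an array left out. For the difference on that scale (4 calls) they were 14 with quantile normalization, 1 with a pseudocount of 1, 10 with a pseudocount of 64, 9 with the mean of probe sets, 0 with own variance, 9 with the replicate block and 0 to 17 with an array left out. With own variance no gene of all 11946 passed on the deposited scale, and at an unadjusted p under 0.05 the members numbered 1, 16 and 8 for THZ1, siMITF and the difference. Over all 11946 genes those numbers were 1444, 5706 and 1508. With quantile normalization siMITF had 4 members lower and 10 higher, against 20 lower and 0 higher on the deposited scale. A group left with 1 array was assumed to vary like the others. On the relative scale, THZ1 (20 calls) had 6 without the filter and 13 to 17 with an array left out, siMITF (14 calls) had 11 to 13 and the difference (20 calls) 14 to 21.

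Sign changes are listed here only where the member passed an adjusted p under 0.05 in either of the fits compared. Quantile normalization removes the offset between arrays by construction. With it these log2 changes turned sign from the deposited scale: PFKL 0.18 after THZ1, SLC2A1 0.72, HK1 0.11, HK2 0.69, GPI 0.26, PFKM 0.24, PFKFB4 0.0439, ALDOA 0.055, TPI1 0.0831, PDK3 0.16, VEGFA 0.64, BNIP3 0.86, BNIP3L 0.0675, EGLN1 0.21, P4HA1 0.40 and ANKRD37 0.81 after siMITF, and BNIP3 -0.37 and EGLN1 -0.43 for the difference. From the relative scale PFKM 0.24, BNIP3L 0.0675 and EGLN1 0.21 turned after siMITF and HK1 -0.0526 and BNIP3 -0.37 for the difference. With the mean of probe sets PFKFB3 0.0839, VEGFA 0.0859 and EGLN1 0.24 turned after THZ1. The cause was not tested.

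Same-numbered arrays deviated together with a correlation of 0.11 for THZ1 and DMSO and -0.18 for siMITF and siCtrl. The replicate block, by numbers the labels do not tie to a culture or day, gave 2, 22 and 9 calls on the deposited scale and 19, 13 and 18 on the relative one, for THZ1, siMITF and the difference. A crossed pairing of the siRNA arrays, chosen after seeing the data, gave 26 and 15 calls. With 2 arrays per group, precision is limited by their number.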
